A study of Rattus norvegicus with 4 samples.

Results

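Transcripts of the constitutive proteasome were followed in liver RNA-seq data from rats anesthetized with sevoflurane or desflurane. Genes were selected by symbols that begin with Psma, Psmb, Psmc or Psmd and a number, and the 3 immunoproteasome genes Psmb8, Psmb9 and Psmb10 were left out. The rule gave 38 of 16992 annotated genes. They comprised 14 core subunits, 17 regulatory subunits, the tissue-restricted core subunits Psma8 and Psmb11, and the assembly chaperones Psmd5, Psmd9 and Psmd10. The other 2 matches were Psma3l, whose locus overlaps that of Psma3, and Psmc3ip, a meiotic recombination factor that is not a proteasome subunit. Of the 38 genes, 35 had values higher than 2 TPM (transcript abundance scaled for length and depth) in all 4 libraries, including all 31 core and regulatory subunits.

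All animals were wild-type male Wistar rats, bought at 6 weeks of age, and RNA came from the left lateral lobe of the liver. One rat breathed sevoflurane (4.5%) through a nose cone for 6 hours, and another breathed desflurane (6%) for 6 hours. Each agent had its own control, a rat that inhaled the same agent only until it lost consciousness, so the controls were also exposed to the agents. There was 1 library for each of the 4 conditions, no replicate and no test. The difference between the 2 controls was the only yardstick. It mixes animal with agent, so spread between animals alone was not measured.

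The proteasome degrades proteins that carry ubiquitin chains. Its barrel-shaped core is built of rings of alpha subunits, which form the gate, and rings of beta subunits, of which Psmb5, Psmb6 and Psmb7 cut peptide bonds. A regulatory particle caps the core: its base holds a ring of ATPases (the Psmc genes) that unfold substrates, and its lid removes ubiquitin. The liver turns over much of its protein through this route and through autophagy.

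Hepatocyte markers were abundant in every library, with albumin (Alb) between 77519 and 92912 TPM. Summed TPM of 5 leukocyte markers was 553 in the sevoflurane control, 224 in the sevoflurane 6 h library, and 363 and 433 in the corresponding desflurane libraries. Of 5 pancreatic acinar markers, 4 had values higher than 2 TPM only in the sevoflurane control, and their summed TPM with the fifth, Cela1, was 43.9 there and 15.1 to 18.4 elsewhere. Their part in the differences below was not tested. Average coverage of the 31 subunits ranged from 40.2 to 220 reads per base, and without read counts the counting error of single values is unknown.

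Proteasome genes are known targets of the transcription factors Nfe2l1 and Nfe2l2, which bind antioxidant response elements, and both factors were measured in these libraries. Promoters from RefSeq (build GRCr8, 250 bases before to 50 bases after the start) were therefore searched on both strands for the element core TGACNNNGC. Promoters were matched for 27 of the 31 subunits and for all 3 chaperones. For each promoter with a match before the start, a stretch of 60 bases that holds such a match is shown. It reads 5′ to 3′ on the strand of the gene, with the matching bases in capitals.
Psma3: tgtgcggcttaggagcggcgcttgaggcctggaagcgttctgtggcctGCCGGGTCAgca
Psmb2: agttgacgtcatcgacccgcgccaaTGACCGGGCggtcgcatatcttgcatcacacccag
Psmb5: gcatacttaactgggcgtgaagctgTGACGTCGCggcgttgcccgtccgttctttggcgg
Psmb6: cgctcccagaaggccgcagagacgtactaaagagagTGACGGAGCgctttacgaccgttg
Psmd1: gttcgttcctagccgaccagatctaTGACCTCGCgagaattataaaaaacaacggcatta
Psmd9: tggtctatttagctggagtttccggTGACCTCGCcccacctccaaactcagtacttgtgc

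These stretches lie at chr6:95219689-95219748 (plus strand) for Psma3, chr5:144254965-144255024 (plus) for Psmb2, and chr15:32047405-32047464 (minus) for Psmb5. Those of Psmb6, Psmd1 and Psmd9 lie at chr10:55737828-55737887 (plus), chr9:94157781-94157840 (plus) and chr12:39018307-39018366 (minus). In Psma3 the match is on the opposite strand, and in Psmb2 it shares 1 base with a CCAAT box. The core of the element was present in 4 of 13 core promoters (30.8%) and 2 of 14 regulatory promoters (14.3%), one of which, that of Psmd3, holds it after the start. All 33469 promoters held it in 12.1%, and those of genes higher than 2 TPM in at least 1 library in 15%. Psmd9 held a second match before the start, on the opposite strand, whose stretch is not shown. Psmd1 held a second match after the start. The CCAAT box, searched in the same way, was present in 9 of 13 core promoters (69.2%), 5 of 14 regulatory promoters (35.7%) and 37.5% of all promoters. A match describes letters in these windows and not a bound site.

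Where 4 values are given, the order is sevoflurane control, sevoflurane 6 h, desflurane control and desflurane 6 h. Subunit genes were expressed within a narrow range of TPM, which is normalized for transcript length. Within a library, the highest and the lowest of the 31 subunits differed 4.03-fold to 4.77-fold. The median TPM of the 14 core subunits was 89.9, 96.8, 79.1 and 76.4, and that of the 17 regulatory subunits was 55.2, 61.0, 47.6 and 47.3. The core median was therefore 1.59 to 1.66 times the regulatory median in every library. The ranking of subunits hardly differed between libraries, with Spearman's rho between 0.961 and 0.978 for pairs of libraries (31 genes, which share a normalization and are not replicates).

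The order of mean TPM over the 4 libraries began with Psmb5 (117), Psmb1 (116) and Psma6 (103) and ended with Psmb6 (34.0), Psmd4 (32.6), Psmd13 (26.9) and Psmd14 (26.4). Psmb5 and Psmb1 changed places between libraries, as did Psmd13 and Psmd14. Psmd8, a lid subunit, was the most abundant regulatory subunit with a mean of 84.6 TPM. The catalytic Psmb6 stood apart from the other core subunits, as its next neighbor in the core, Psma5, had a mean of 52.7 TPM. Values of single subunits differed 1.06-fold (Psmd2) to 1.44-fold (Psmc5) between the highest and lowest library, with a median of 1.30, beside a median of 1.34 for the 9136 genes higher than 2 TPM in all libraries.

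**Figure D1:**
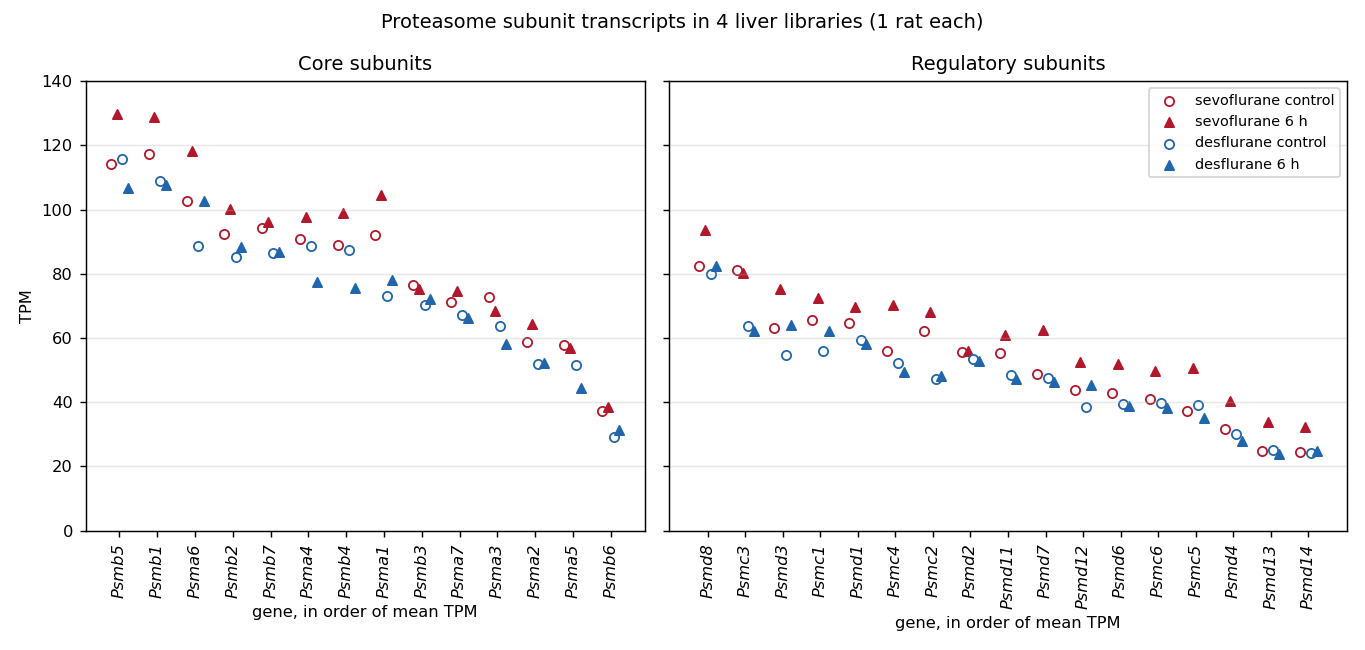
TPM (y axis, linear) of 14 core subunits (left) and 17 regulatory subunits (right), in order of mean TPM, with 1 point per library. Open circles are controls and triangles are 6 h libraries, red for sevoflurane and blue for desflurane. The red triangle is the highest point for 27 of the 31 subunits, and each blue triangle is below the red triangle of its gene.

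With sevoflurane, 27 of 31 subunits were higher than in the own control, 11 of 14 in the core and 16 of 17 in the regulatory particle, whereas 56.5% of all genes were higher. The differences were small. The median log2 difference was 0.11 for the core and 0.25 for the regulatory subunits, against 0.05 for all genes and 0.14 for the median difference, regardless of sign, between the 2 controls. None of the 38 genes passed the 2-fold rule of the study (over 2 TPM in the higher library) with sevoflurane, which 2.23% of all genes passed upward and 3.3% downward. In whole-tissue RNA, fewer cells of a type and less RNA per cell cannot be told apart.

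With desflurane, 13 of 31 subunits were higher than in the own control, 7 in the core and 6 in the regulatory particle, and 66.6% of all genes were higher. The median log2 difference was -0.01 for the core and -0.03 for the regulatory subunits, with 0.11 for all genes. After median-of-ratios scaling, which brought the median of all genes to -0.01, only 4 of 31 subunits were higher and the medians were -0.13 and -0.16. With sevoflurane that scaling gave an all-gene median of 0.01, 25 of 31 subunits higher, and medians of 0.07 and 0.21. None of the 31 subunits passed the 2-fold rule with desflurane, which 2.79% of all genes passed upward and 1.48% downward.

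**Figure D2:**
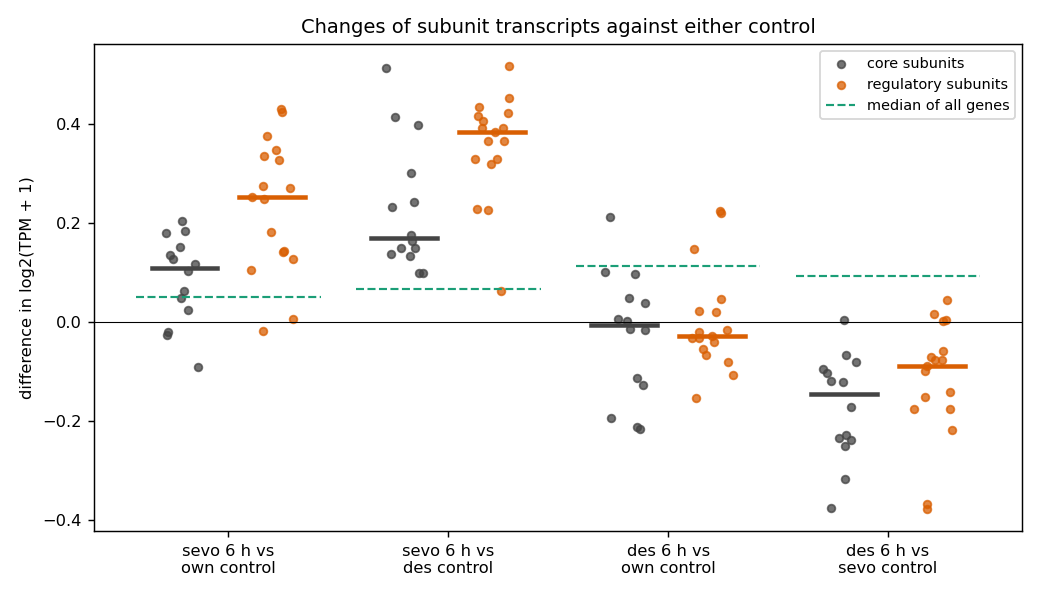
Difference in log2(TPM + 1) (y axis) of each 6 h library against its own control and against the control of the other agent, with 1 point per subunit (gray, core; orange, regulatory), thick bars at list medians and dashed green lines at the median of all genes. Regulatory medians lie at 0.25 and 0.38 with sevoflurane and at -0.03 and -0.09 with desflurane.

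The alpha subunits of the core changed little. Psma6, an outer ring subunit, was 102.5, 118, 88.5 and 102.7 TPM, which was 1.15-fold with sevoflurane and 1.16-fold with desflurane against the own control. It had the largest difference upward of all core subunits with both agents, but the desflurane 6 h value was only 1.002-fold the sevoflurane control. Psma1, an alpha subunit named after its values were seen, was 92.2, 104, 72.9 and 78.0 TPM, with a control difference larger than that of either agent. Psma3 was 72.8, 68.3, 63.7 and 58.2 TPM and Psma5 was 57.9, 56.8, 51.7 and 44.4 TPM. These were the lowest changes of the core with sevoflurane (0.938-fold and 0.982-fold), and Psma5 had the lowest with desflurane (0.858-fold). For both genes the 2 desflurane libraries were below the 2 sevoflurane libraries. Of the 7 alpha subunits, 5 were higher with sevoflurane and 3 with desflurane, and medians were 0.10 and -0.02 on the log2 scale.

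Among the beta subunits, the catalytic subunits were similar in all libraries. Psmb5, which carries the chymotrypsin-like activity, was 114, 129.7, 116 and 107 TPM, so that only the sevoflurane 6 h value was above both controls (1.14-fold its own). Psmb6, with caspase-like activity, was 37.3, 38.6, 29.0 and 31.2 TPM, and the sevoflurane pair was above the desflurane pair. Psmb7, with trypsin-like activity, was 94.4, 96.0, 86.4 and 86.8 TPM. For the last 2 genes the difference between the controls was larger than that of either agent. Psmb4, a noncatalytic subunit, was 88.9, 98.9, 87.5 and 75.4 TPM, 1.11-fold with sevoflurane and 0.862-fold with desflurane, and its controls were close to each other. Psmb1, close to Psmb5 in level, was 117, 129, 109 and 108 TPM. Medians of the 7 beta subunits were 0.12 and 0.01 on the log2 scale.

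The differences with sevoflurane were larger in the regulatory particle, where 8 of 17 subunits were more than 1.2-fold higher than in the control, whereas none of the 14 core subunits and 26.1% of all genes were. None of the 31 subunits was more than 1.2-fold lower, beside 19.1% of all genes. The 8 genes were Psmc5, Psmd13, Psmd14, Psmd7, Psmd4, Psmc4, Psmc6 and Psmd6, in order of fold change from 1.36 to 1.21. The last 2 and Psmd7 and Psmc4 were named after their values were seen. With desflurane none of the 31 subunits was more than 1.2-fold higher or lower than its own control, beside 32.7% of all genes that were higher and 12.2% that were lower.

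Psmc5, an ATPase of the base, was 37.3, 50.6, 39.1 and 35.0 TPM. It was 1.36-fold the control with sevoflurane, the largest difference of the regulatory list, and 0.896-fold with desflurane, the lowest of that list. Its 2 controls differed 1.05-fold. Psmc3 was 81.3, 80.3, 63.7 and 62.3 TPM and was the only regulatory subunit below its control with sevoflurane (0.988-fold). In Psmc3 the sevoflurane pair and the desflurane pair did not overlap, and its difference with desflurane was as small (0.978-fold). Psmc4 was 55.9, 70.3, 52.2 and 49.3 TPM and Psmc6 was 40.9, 49.7, 39.7 and 38.1 TPM, with only the sevoflurane 6 h value above both controls in each. Apart from Psmc3 and Psmc5, the ATPase genes were between 1.09-fold and 1.26-fold with sevoflurane and between 0.944-fold and 1.11-fold with desflurane. The limits of 1.26-fold and 0.944-fold were those of Psmc4.

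Ubiquitin receptors of the base did not move alike. Psmd4 (Rpn10), which binds ubiquitin chains, was 31.8, 40.3, 30.2 and 28.0 TPM, 1.27-fold with sevoflurane and 0.926-fold with desflurane. The scaffold and receptor Psmd2 (Rpn1) was 55.7, 55.9, 53.5 and 52.9 TPM, the most even of all 31 subunits. The third base subunit without ATPase activity, Psmd1, lay between them with 1.08-fold and 0.980-fold.

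All 8 lid genes within the symbol rule were higher after 6 hours of sevoflurane than in both controls. The small lid subunit Sem1, outside the rule, was lower than in both. Psmd14 (Rpn11), the deubiquitinase that cuts ubiquitin chains off substrates, was 24.6, 32.2, 24.3 and 24.7 TPM. Psmd13 was 24.9, 33.7, 25.05 and 23.9 TPM. In both genes the sevoflurane 6 h library stood above 3 similar values, at 1.31-fold and 1.35-fold its control. Psmd7, the inactive partner of Psmd14, was 48.9, 62.5, 47.6 and 46.3 TPM and Psmd6 was 42.9, 52.0, 39.4 and 38.8 TPM, with the same order of libraries in each. Psmd3 was 63.2, 75.3, 54.7 and 63.9 TPM, 1.19-fold with sevoflurane and 1.17-fold with desflurane. Psmd12 was 43.9, 52.4, 38.6 and 45.3 TPM, 1.195-fold and 1.17-fold. For these 2 lid genes both agents gave higher values than their own controls, but the desflurane control was also 0.866-fold and 0.879-fold the sevoflurane control. Psmd8 was 82.4, 93.6, 79.9 and 82.5 TPM, and its desflurane 6 h value was equal to the sevoflurane control within 0.1 TPM.

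Both 6 h libraries were above both controls for 5 of 31 subunits (Psma6, Psmd3, Psmd8, Psmd12 and Psmd14), a pattern found in 33.3% of all genes. They were below both controls for none of the 31, beside 13.3% of all genes. In all 5 genes the gap between the lower 6 h library and the higher control was less than 0.1 on the log2 scale, and after median-of-ratios scaling or with FPKM no subunit showed the pattern.

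The choice of control changed the size of the differences. Against the desflurane control, in which all 4 pancreatic transcripts were listed at 0, the sevoflurane 6 h library was higher for 31 of 31 subunits (58.3% of all genes), with medians of 0.17 in the core and 0.38 in the regulatory particle. More than 1.2-fold higher were 18 of 31 subunits (27.2% of all genes), 14 of them regulatory, and none was more than 1.2-fold lower (18.7% of all genes). Against the sevoflurane control, the desflurane 6 h library was higher for 5 of 31 subunits (64% of all genes), with medians of -0.15 and -0.09. None was more than 1.2-fold higher (30.6% of all genes), and 4 of 31 were more than 1.2-fold lower (13.4% of all genes). None of the 38 genes passed the 2-fold rule against the other control, which 2.52% of all genes passed upward and 2.59% downward with sevoflurane and 2.84% and 1.58% with desflurane. The comparisons share libraries. Among the 31 subunits, the largest differences against the other control were Psma1 (1.43-fold) and Psmc2 (1.44-fold) with sevoflurane and Psmc3 (0.767-fold) and Psma5 (0.767-fold) with desflurane. Psmc2, an ATPase named after its values were seen, was 62.3, 68.1, 47.3 and 48.1 TPM, and its pairs of libraries did not overlap.

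The 4 libraries were also set side by side without pairing. The sevoflurane 6 h library had the highest TPM for 27 of 31 subunits, as for 28.2% of all genes, and for 24 to 27 under 4 other scalings or row choices. The desflurane 6 h library was below the sevoflurane 6 h library for 31 of 31 subunits (41.3% of all genes) under all 5 of these settings. The median log2 difference, desflurane minus sevoflurane, was -0.27 in the core and -0.37 in the regulatory particle with TPM as deposited, -0.34 and -0.45 after median-of-ratios scaling, and -0.46 and -0.55 with FPKM. The lowest of the 4 libraries was a desflurane library for 31 of 31 subunits, 13 times the control and 18 times the 6 h library, beside 46.8% of all genes. The desflurane control was below the sevoflurane control for 28 of 31 subunits (54.6% of all genes), which became 21 when rRNA genes were removed and TPM was rescaled. The median log2 difference between the controls was -0.12 over the 31 subunits. Summed TPM of the 31 genes was 2048, 2272, 1867 and 1854.

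Within the regulatory particle, genes with lower levels tended to have the larger differences with sevoflurane. So that no library entered both axes, the log2 difference with sevoflurane was set against the log2 level in the desflurane 6 h library, and Spearman's rho was -0.77 (Pearson's r -0.70) across 17 regulatory genes. Across 14 core genes rho was 0.64 (r 0.54), the opposite sign. For the desflurane difference against the level in the sevoflurane control, rho was 0.45 across regulatory and 0.18 across core genes. The points are genes of the same libraries and not replicates.

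**Figure D3:**
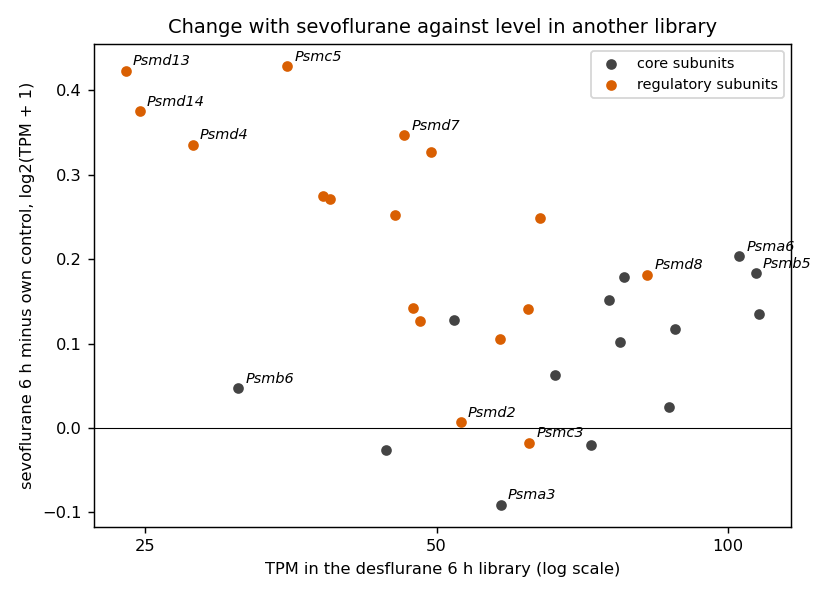
Difference in log2(TPM + 1) between the sevoflurane 6 h library and its control (y axis) against TPM in the desflurane 6 h library (x axis, log scale), with 1 point per subunit (gray, 14 core; orange, 17 regulatory). Low regulatory genes such as Psmd13 and Psmd14 are at the upper left, and Psmb6, a core gene of similar level, is near 0.

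Of the 3 chaperones that assist assembly of the regulatory base, Psmd9 and Psmd10 were below all 31 subunits in every library, and Psmd5 was near the least abundant subunits. Psmd10 (gankyrin) was 3.49, 5.36, 3.02 and 6.30 TPM and was upregulated 2.09-fold with desflurane, the only one of the 38 genes to pass the 2-fold rule, beside 2.79% of all genes. Its coverage was 10.6 reads per base or less, it was 1.81-fold the sevoflurane control, and it did not pass after median-of-ratios scaling, with rRNA genes removed, or with FPKM. Rows that StringTie assembled over the same gene gave 7.47, 7.11, 2.47 and 9.07 TPM, that is 0.951-fold with sevoflurane and 3.66-fold with desflurane. The members next in size, all well below the limit, were Psmd9 (1.56-fold), Psmd10 (1.54-fold) and Psmd5 (1.43-fold) with sevoflurane, and Psmd5 (1.21-fold) and Psmd12 (1.17-fold) with desflurane.

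Psmd5 was 23.8, 34.1, 21.3 and 25.8 TPM. Both 6 h values were above both controls, that of sevoflurane by a wider margin. Psmd9, whose promoter is printed above, was 12.7, 19.8, 17.8 and 18.1 TPM. Only the sevoflurane control was apart in Psmd9, so that the sevoflurane 6 h library was 1.56-fold its own control but 1.11-fold the desflurane control. With desflurane it was 1.02-fold in annotated rows and 0.767-fold in assembled rows.

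The tissue-restricted subunits were near 0. Psma8, of testis proteasomes, was listed at 0 in 3 libraries and at 0.14 TPM in the desflurane control. Psmb11, of the thymus proteasome, did not exceed 0.05 TPM, although its gene lies 3.78 kilobases from the abundantly expressed Psmb5 on chromosome 15 (rn6). Psmc3ip was 1.66, 1.34, 1.44 and 1.65 TPM. Psma3l was 116, 109, 102 and 91.9 TPM, and its ratio to Psma3 was between 1.58 and 1.60 in every library. As Psma3l and Psma3 overlap and RefSeq lists the former as a synonym of the latter, the level of each is uncertain.

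The 31 subunit genes lie on 13 chromosomes in rn6, with 6 on chromosome 10, and span 2308 to 94882 base pairs. Psmb4 and Psmd4 on chromosome 2 lie 152 kilobases apart. They were 1.11-fold and 1.27-fold with sevoflurane and 0.862-fold and 0.926-fold with desflurane.

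The immunoproteasome subunits replace the catalytic subunits in immune cells and under interferon, and their values differed between libraries more than those of their constitutive counterparts. Psmb8, the counterpart of Psmb5, was 53.2, 17.1, 45.6 and 32.2 TPM. Psmb9, the counterpart of Psmb6, was 50.2, 16.04, 38.8 and 26.9 TPM. Both genes were lowest after sevoflurane. Psmb10, the counterpart of Psmb7, was 41.0, 23.9, 41.4 and 21.3 TPM. In all 3 genes both 6 h libraries were below both controls, a pattern found in 13.3% of all genes. Psmb8 and Psmb9 passed the 2-fold rule downward with sevoflurane (0.322-fold and 0.319-fold), beside 3.3% of all genes.

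The ratio of Psmb5 to Psmb8 was therefore 2.14, 7.57, 2.54 and 3.31, and that of Psmb6 to Psmb9 was 0.742, 2.41, 0.748 and 1.16. In both controls Psmb9 exceeded Psmb6, and in both 6 h libraries the order was the opposite. The 3 immunoproteasome genes made up 37.0%, 17.7%, 35.2% and 26.4% of the summed TPM of the 6 catalytic genes. Of that sum, Psmb5, Psmb6 and Psmb7 together gave 246, 264, 231 and 225 TPM. The immunoproteasome genes gave 144, 57.0, 126 and 80.5 TPM.

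Leukocyte markers moved with these genes in the sevoflurane pair and not in the desflurane pair. All 5 (Ptprc, Cd74, Cd3e, Clec4f and Cd68) were lower than the own control with sevoflurane, where Ptprc was 13.7 and 4.11 TPM. All 5 were higher than the own control with desflurane, where Ptprc was 9.24 and 10.9 TPM. Against the sevoflurane control, the desflurane 6 h library was lower for Ptprc, Cd74, Cd3e and Cd68 (0.692-fold to 0.884-fold) and 1.01-fold for Clec4f. Cd3e was at 0.69 TPM or less in every library, and none of the 5 was at 0. Their part in the immunoproteasome values was not tested.

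**Figure D4:**
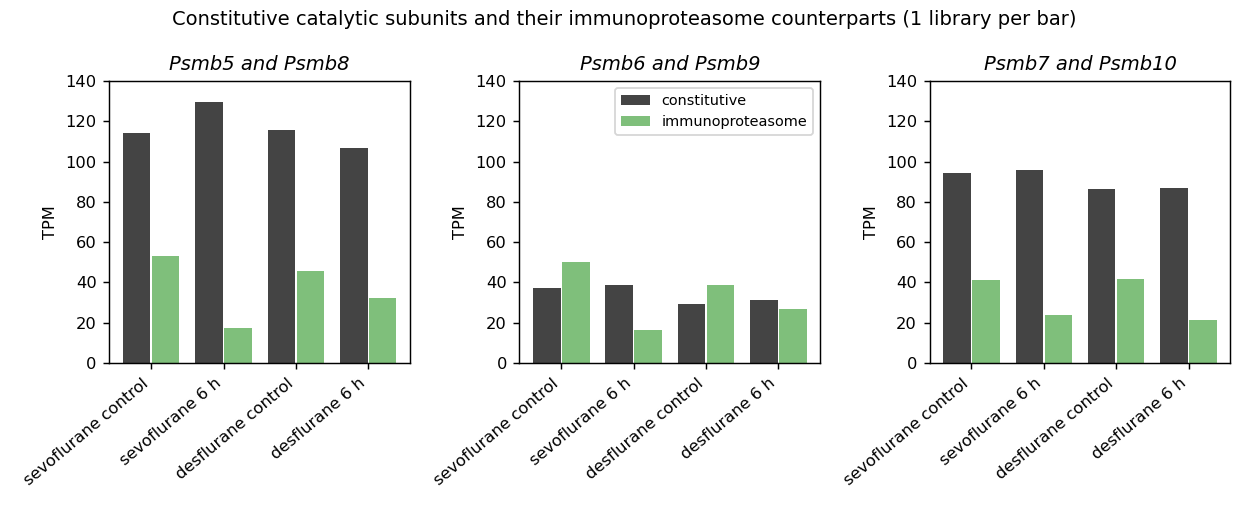
TPM (y axis, from 0) of the 3 constitutive catalytic genes (dark bars) and their immunoproteasome counterparts (green bars), with 1 library per bar and no error bar. Dark bars (29.0 to 38.6 TPM for Psmb6) differ less between libraries than their green counterparts, and green bars are lower in both 6 h libraries.

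Other genes of the pathway were given by lists of activators, assembly factors, bound factors and regulators. Among 5 activators and inhibitors, Psme1 and Psme2, which form the interferon-inducible PA28 activator, had the lowest values relative to the controls. Psme1 was 183, 135, 180.3 and 139.6 TPM. Psme2 was 49.99, 29.2, 45.6 and 34.3 TPM. Both 6 h libraries were below both controls for these genes, as for 13.3% of all genes. Psme1 and Psme2 were 0.741-fold and 0.584-fold with sevoflurane and 0.774-fold and 0.752-fold with desflurane, and neither passed the 2-fold rule. The nuclear activators Psme3 and Psme4 were between 1.05-fold and 1.099-fold with either agent.

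Of 5 core assembly factors 4 were found. Pomp, which matures the core, was 139, 128, 138 and 127 TPM, and its mean of 133 was above that of every subunit. Psmg1 was 31.2, 37.9, 36.0 and 41.0 TPM, highest in the desflurane 6 h library.

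Factors that bind the proteasome were led by Adrm1 (Rpn13), a ubiquitin receptor with 69.5, 83.9, 64.1 and 61.5 TPM. As in Psmd4, the sevoflurane 6 h library alone was above both controls. Txnl1, a thioredoxin of the regulatory particle, was 68.2, 84.1, 64.6 and 53.2 TPM, 1.23-fold with sevoflurane and 0.825-fold with desflurane. Sem1, a small lid subunit whose symbol is outside the rule, was 45.9, 41.9, 44.4 and 49.0 TPM, lower than its control with sevoflurane and higher with desflurane. The deubiquitinase Uchl5, which binds Adrm1, was 8.28, 8.998, 5.87 and 6.88 TPM. Of 9 symbols listed here 5 were found, and none passed the 2-fold rule.

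Regulators of proteasome genes comprised 6 genes, of which 5 were higher with each agent. Of all genes, 56.5% were higher with sevoflurane and 66.6% with desflurane. Ddi2, the protease that activates Nfe2l1, was 126, 149, 102 and 169.9 TPM, 1.18-fold with sevoflurane and 1.66-fold with desflurane. Nfe2l1 itself, named after its values were seen, was 40.8, 64.2, 41.0 and 64.4 TPM. Its 6 h libraries were 1.57-fold their controls with both agents, with nearly equal controls. Nfe2l2 (Nrf2) was lower in both 6 h libraries, with 81.2, 59.6, 85.5 and 68.6 TPM. Zfand2a (AIRAP), a proteasome-associated stress gene, was 4.99, 10.04, 4.33 and 5.75 TPM and was upregulated 2.01-fold with sevoflurane, a rule that 2.23% of all genes passed upward. It was 1.96-fold after median-of-ratios scaling and 1.94-fold with FPKM, and no longer passed. With rRNA genes removed it was 2.02-fold, and against the desflurane control 2.32-fold, and it passed. The median log2 difference of the 31 subunits was 0.14 with sevoflurane and -0.02 with desflurane.

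The ubiquitin-activating enzymes Uba1 and Uba6 were between 0.934-fold and 1.04-fold. Among 9 shuttle and unfoldase factors, Vcp, the ATPase that extracts ubiquitinated proteins, was even (239, 233, 224 and 224 TPM). Its cofactor Ufd1 was 20.9, 29.2, 18.5 and 19.3 TPM, 1.40-fold with sevoflurane alone. Nsfl1c, another cofactor, was 46.7, 52.4, 49.6 and 40.3 TPM. None of the 9 factors passed the 2-fold rule.

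Among 5 ubiquitin ligases and related genes, none passed the 2-fold rule. Trim63 was listed at 0 in every library, and Fbxo32 was 5.23, 3.33, 3.76 and 4.85 TPM. Nedd4, the most abundant of the 5, was 124, 122, 125 and 129 TPM, and Stub1 was 28.6, 29.3, 26.01 and 36.7 TPM, 1.03-fold with sevoflurane and 1.41-fold with desflurane.

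Other multi-subunit complexes of related architecture were set beside the proteasome. The COP9 signalosome, whose subunits resemble those of the lid, had medians of 0.15 with sevoflurane and 0.20 with desflurane over 9 genes. The translation factor eIF3, also built on this plan, had medians of 0.27 and 0.13 over 12 genes. The chaperonin CCT, which folds actin and tubulin, had 0.19 and -0.05 over 8 genes. The desflurane 6 h library was below the sevoflurane 6 h library for 4 of 9, 9 of 12 and 8 of 8 genes, with medians of 0.03, -0.19 and -0.26. The largest changes in these lists were those of Eif3j (1.54-fold with sevoflurane) and Cct2 (1.39-fold).

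**Figure D5:**
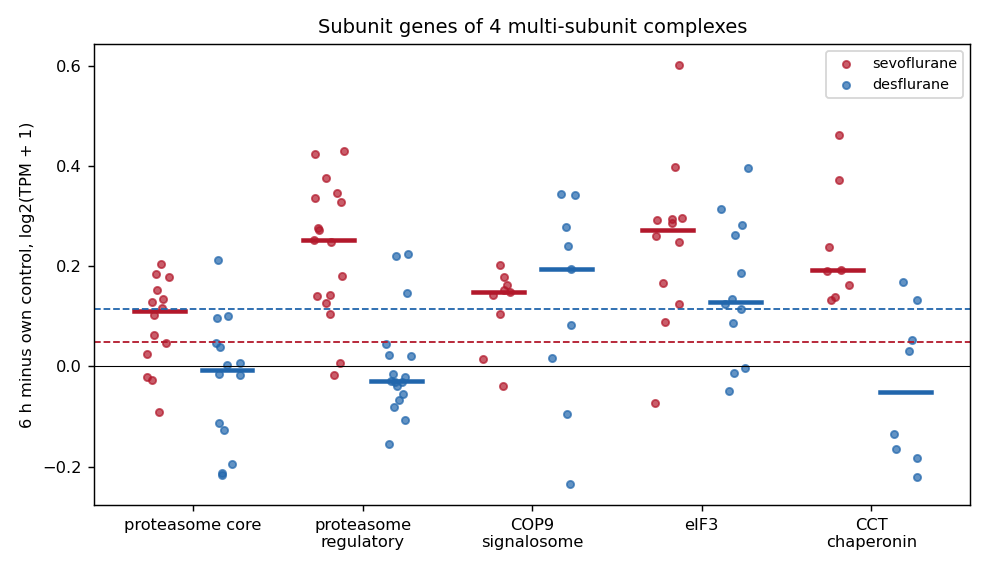
Difference in log2(TPM + 1) between each 6 h library and its own control (y axis) for subunit genes of 4 complexes, with 1 point per gene, thick bars at medians, and dashed lines at the median of all genes (red, sevoflurane, 0.05; blue, desflurane, 0.11). Core and regulatory proteasome genes and chaperonin genes have a red median above the red line and a blue median below the blue line.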

How the data were processed

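Liver RNA from 4 rats was sequenced by the authors as stranded total RNA libraries. According to the methods of the study and the labels, reads were trimmed with sickle, mapped to rn6 with HISAT2, sorted with SAMtools, and quantified with StringTie on the refGene genes of rn6. Deposited values are coverage (a signal per base, not normalized for library size), FPKM, and TPM. The deposited TPM values are a signal scaled by the authors' StringTie run so that rows it assembled share a fixed total. Annotated rows, scaled alike, sum to between 779824 and 813454. Annotated rows longer than 200 base pairs were used, and TPM of rows with the same symbol was summed. Aligned bases, derived from coverage and FPKM, amounted to 4.47 to 5.40 gigabases per library.

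Fold changes were ratios of TPM without a pseudocount, and log2 differences used log2(TPM + 1). The calling rule was that of the study, TPM higher than 2 in the higher library and a difference of more than 2-fold. With 1 library per condition no test was made. Shares of all genes refer to genes that passed the same TPM limit. Members and gene lists were chosen with earlier results of these data known.

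Genes named were the catalytic subunits, Psmd2, Psmd4 and Psmd14, the most and least abundant member of the core and regulatory lists, the extreme changes with each agent, members near or past the 2-fold limit, members with the widest gap between 6 h and control libraries, and all matches that are not core or regulatory subunits. In the other lists they were the most abundant member, the extreme changes, and those past the rule. Psmg3, Shfm1, Ecpas, Ecm29, Ube3c and Eif3e were not found by symbol, and the values of some other listed genes are not reported here. Alternatives covered scaling, FPKM, row handling, the length filter, limits, pseudocounts, list membership and the control, and assembled rows were added after the data had been seen. Scripts were tested on simulated data. Python 3.11.15, numpy 2.4.6, pandas 2.3.3, scipy 1.17.1 and matplotlib 3.10.9 were used.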

Additional observations from a re-analysis of the deposited data

Results flagged for a closer look

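Among the genes named by the rules above, markers apart, 7 differed from the own control in opposite directions with the 2 agents. Each difference exceeded 0.14 on the log2 scale, the median difference between the controls over all genes. None of these differences between agents was tested, as each condition has 1 library. Psmc5 had 0.43 with sevoflurane and -0.15 with desflurane. Psmb4 had 0.15 with sevoflurane and -0.21 with desflurane. The proteasome-bound thioredoxin Txnl1 had 0.30 and -0.27, and the Vcp cofactor Nsfl1c had 0.16 and -0.29. The chaperonin subunit Tcp1 had 0.14 and -0.22. Chaperonin genes outside the naming rules, Cct5 (0.24 and -0.18) and Cct6a (0.37 and -0.16), also met these limits. The COP9 subunit Cops6 had 0.20 and -0.24. In the opposite sense, the ligase Fbxo32 had -0.52 with sevoflurane and 0.30 with desflurane. Against the control of the other agent Fbxo32 had -0.13 and -0.09, the same direction with both agents, and Cops6 had 0.03 and -0.06. The other 5 of the 7 genes, like Cops6, kept opposite directions against that control.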

How the results depend on the processing

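Each of 18 alternatives, 17 of them planned, was applied in turn, and 95 of 110 summary values stayed within the yardsticks (0.14 on the log2 scale for medians, 1.5 times for counts), with 0 reversals. The count of genes upregulated with desflurane, 1 (Psmd10), became 0 after median-of-ratios scaling, with rRNA genes removed, with FPKM, against the other control, against the mean of both controls, and with 1 TPM added. Without a TPM limit it became 2, with 1 gene upregulated with sevoflurane and 1 downregulated with desflurane. With a fold limit of 1.5, 2 genes were upregulated with sevoflurane. The 5 subunits with both 6 h libraries above both controls became 0 after median-of-ratios scaling, with FPKM, or when a gap over 0.1 was asked for, and 1 with rRNA genes removed. For the altered limits the limit itself is the cause, and for the other settings the cause was not tested. The core median with desflurane was -0.15 against the other control. Of 1134 values of single genes, 1037 stayed within the yardstick and 97 did not, 52 of them against the other control. Signs of single genes changed for 19 of 126 values against the other control, 16 with the mean of both controls, 13 after median-of-ratios scaling, 12 with FPKM, 10 with assembled rows and 8 with rRNA genes removed. No paired analysis was possible because each group has 1 library. Counting error is unknown without read counts, and 23 of 31 subunits had an assembled TPM within 1% of the annotated one.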
